A study of Rattus norvegicus with 4 samples.

Results

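The microRNAs (miRNAs) rno-miR-1224, rno-miR-3584-5p and rno-miR-3473 are 3 of the 719 rat miRNAs on the array. They were chosen by their signal on the array of naive rats, where they came directly after miR-451-5p, so that their high level there is no finding. miR-451-5p lay just above them with an unscaled signal of 27775 intensity units, and miR-16-5p lay just below them with 7065. The RNA came from exosomes, small vesicles that cells release, prepared from the serum of male rats, and it was labelled with the dye Cy3 and hybridised to an Agilent miRNA array. The 4 groups had 1 array each. They were naive rats without injection (day 0) and rats with hepatocellular carcinoma (HCC) whose serum the labels call light (day 35), moderate (day 49) and severe (day 49). The strain is spelled "baffolo" in the series' text, and no genotype or age is given. Per the labels a HCC cell line, not named, was injected, whereas the design text has HCC exosomes given as 1 dose, and whether the RNA of an array was pooled from several rats is not stated. With 1 array per group there was no replicate error and no test, and ± below is the standard error over the replicate spots of an array, which covers spot noise only. Disease and day differ together between the naive array and the other 3.

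A miRNA is a short RNA that guides Argonaute proteins to messenger RNAs, mostly through its seed, bases 2 to 8 from the 5′ end. miRNAs leave cells inside vesicles, in which they withstand the nucleases of serum. miR-1224 is known as a mirtron, a miRNA whose hairpin is a short intron that the spliceosome releases, so that its making does not need the Drosha enzyme. The mature sequences, from RefSeq's annotation of the GRCr8 assembly, are shown because the 3 differ in their seeds (in capitals) while all are rich in G.
rno-miR-1224: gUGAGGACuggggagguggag
rno-miR-3584-5p: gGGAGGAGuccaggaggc
rno-miR-3473: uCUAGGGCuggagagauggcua
No other rat miRNA of that table shares the seed of any of them. The longest run of bases common to a pair was GGGAGG, of 6 bases, in miR-1224 and miR-3584-5p. G made up 61.9% of miR-1224, 55.6% of miR-3584-5p and 40.9% of miR-3473. The median over the 641 array miRNAs with a sequence was 23.8%. By G content miR-1224 came first of these 641, miR-3584-5p came in place 3, and 91.7% of the miRNAs held less G than miR-3473. miR-3584-5p is also short, with 18 bases against a median of 22.

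The hairpins, also from RefSeq on GRCr8 and with the mature arms in capitals, show where each miRNA lies in its precursor.
Mir1224: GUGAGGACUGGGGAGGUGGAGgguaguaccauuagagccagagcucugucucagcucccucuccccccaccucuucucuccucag
Mir3584: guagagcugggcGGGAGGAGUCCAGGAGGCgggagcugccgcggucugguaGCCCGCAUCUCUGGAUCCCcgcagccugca
Mir3473: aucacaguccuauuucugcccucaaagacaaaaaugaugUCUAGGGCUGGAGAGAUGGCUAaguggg
The hairpin of miR-1224 begins with GU and ends with AG, the letters of the ends of an intron. Of 419 rat hairpins in the table, 4 did so (0.955%), those of miR-1224, miR-877, miR-678 and miR-3595. In RefSeq's annotation Mir1224 lies inside the span of Vwa5b2, on the same strand. Mir3584 lies inside the span of Itprip on the same strand and overlaps a long non-coding RNA gene, LOC120100050, on the other. Mir3473 lies inside the span of Zranb3 on the opposite strand. The array files carry no positions for the miRNAs, so no coordinates are given.

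The sequence of miR-3473 recurs in the rat genome. Written as DNA, tctaGGGCTGGAGAGATGGCTa, it holds a run of 17 bases, in capitals, that was found on either strand in 82 of 33469 promoter windows of 300 bases (0.245%). Windows of neighbouring genes can overlap. The same search with each 17-base run of all 693 mature rat miRNAs found no match for 670 of them, miR-1224 and miR-3584-5p among them. miR-3473 was first, and the next, miR-376b-3p, named after its count was seen, was found in 7 windows. As background, these letters resemble the start of the B2 element, a short repeat that is scattered through rodent genomes.

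All 3 miRNAs were detected on all 4 arrays, and each of their 20 spots on each array was well above background. Each had 2 probes with 10 spots each. The brighter probe of miR-1224 read 9222 ± 51.3 on the naive array, 6016 ± 32.0 on the light, 9374 ± 99.96 on the moderate and 18517 ± 105 on the severe array. Its spots ran from 17922 to 19065 on the severe array, from 8922 to 9378 on the naive and from 8873 to 9835 on the moderate array. The 2 probes of miR-3584-5p read 12822 ± 151 and 12367 ± 119 on the naive array, 5151 ± 36.7 and 5203 ± 56.9 on the light, 14173 ± 101 and 13401 ± 127 on the moderate and 8569 ± 79.1 and 8187 ± 66.1 on the severe array. miR-3584-5p was thus dimmest on the light array and brightest on the moderate one. The brighter probe of miR-3473 read 7553 ± 43.1 in naive, 6438 ± 47.9 in light, 14504 ± 106 in moderate and 3141 ± 22.2 in severe disease. Unscaled, miR-3473 was highest on the moderate and lowest on the severe array. Scaled as described below, miR-3473 was highest on the light array, at a log2 of 4.32, against 4.08 on the moderate, 3.65 on the naive and 3.07 on the severe array. That order depended on the setting. The moderate array was above the light one with spike-in scaling (1.11 against −0.24 from naive) and with normexp (0.49 against 0.47). With quantile normalization both stood at 0.52. The spots of a probe varied with a coefficient of variation between 0.973% and 3.72%, and none was saturated.

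**Figure D1:**
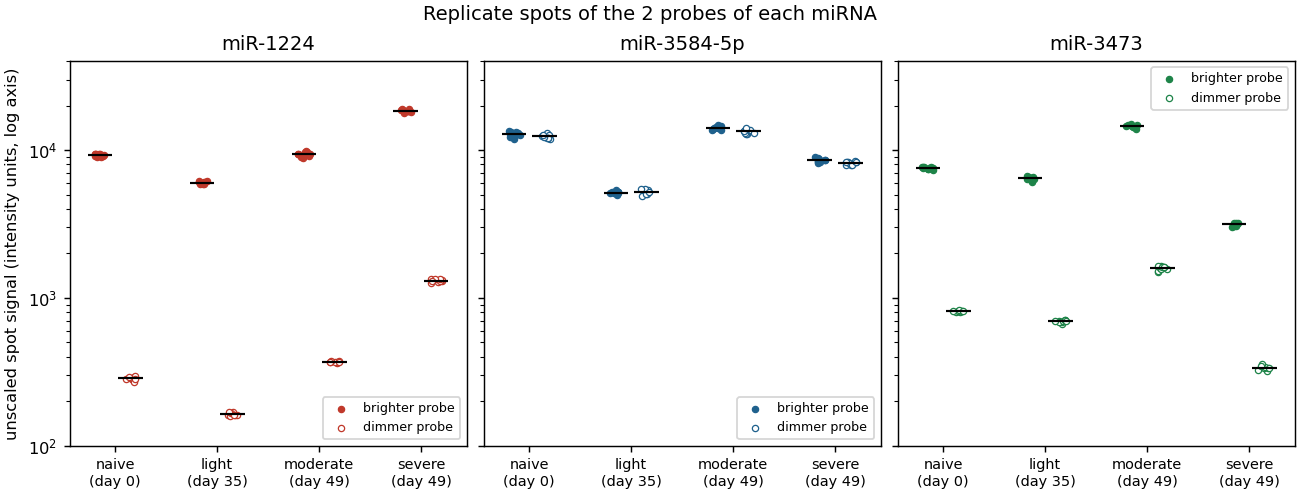
Unscaled signal of each replicate spot not marked as an outlier (intensity units, log axis) by array (naive, light, moderate, severe) for the 2 probes of each miRNA. Filled circles are the brighter probe on the naive array, open circles the other, and bars are means of the spots drawn. The brighter probe of miR-1224 reached 18517 on the severe array against 9222 on the naive one, and that of miR-3473 was lowest there, at 3141.

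Taken as a share of the summed signal of the miRNAs detected on an array, the 3 together held 31.0% on the naive array, 26.5% on the light, 24.3% on the moderate and 41.5% on the severe array. A share compares different probes, whose binding strengths differ, so it describes the array rather than molecules. The share of miR-1224 was 6.83%, 6.91%, 4.43% and 20.5% in that order, with ranks of 3, 4, 6 and 1. That of miR-3584-5p was 18.1%, 11.6%, 12.5% and 17.3%, and it had rank 2 on every array, so that quantile normalization put all its differences at 0. That of miR-3473 was 6.01%, 7.98%, 7.31% and 3.60%, with ranks of 4, 3, 3 and 4. The higher total on the severe array came with a higher share of miR-1224 and a lower share of miR-3473 than on each of the other arrays. Under 6 other ways to form the shares, such as leaving out miR-451-5p or using the brightest probe of each miRNA, the total of the 3 lay between 35.3% and 48.5% on the severe array and between 27.3% and 38.7% on the naive array. The largest total was that of the severe array under each of them.

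**Figure D2:**
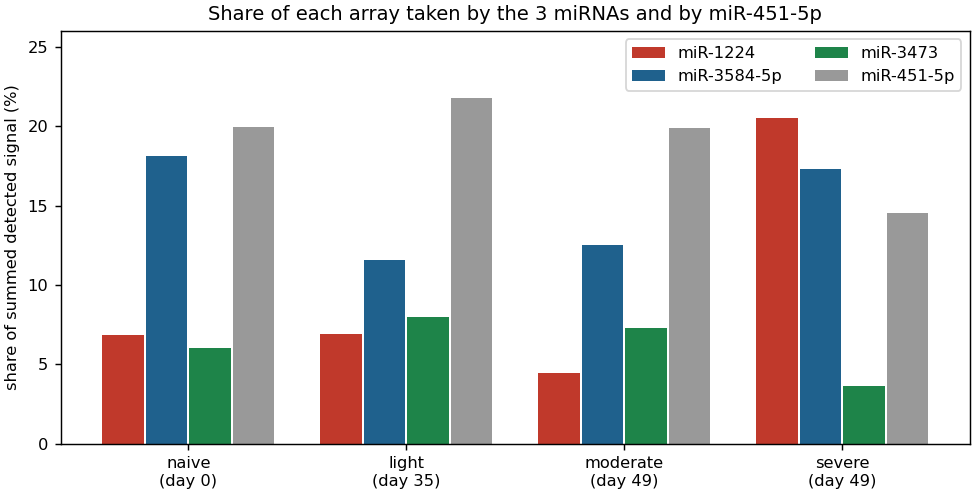
Share (%) of the summed signal of detected miRNAs taken by miR-1224, miR-3584-5p, miR-3473 and, for reference, miR-451-5p on each of the 4 arrays; bars start at 0 and there is 1 array per group. miR-1224 stands at 6.83% on the naive array and at 20.5% on the severe array, and miR-3473 is lowest there, at 3.60%.

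The arrays differed in brightness. Relative to naive, the signal summed over detected miRNAs was 0.643 on the light, 1.58 on the moderate and 0.694 on the severe array, and without the 3 miRNAs these ratios were 0.685, 1.74 and 0.589. Labelling spike-ins, synthetic RNAs added before the dye, gave ratios to naive of 1.004, 0.891 and 0.620. To compare arrays, each signal was divided by the 75th percentile, on its own array, of the 111 miRNAs that all arrays detected (666 for naive, 356 for light, 954 for moderate and 415 for severe), and differences are given on the log2 scale. A difference of 2-fold or more, log2 of 1, is called. A miRNA was taken as measured if the scanner software called it detected and its signal was at least that of the dimmest probe that stood well above background (between 13.1 and 16.0 intensity units). The naive level chose the members, so differences from naive are descriptions.

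On the severe array miR-1224 was 3.35-fold higher than on the naive array, with a log2 difference of 1.74 ± 0.01. It was in place 16 from the top among 109 miRNAs measured on both. Without any scaling it was 2.09-fold higher, on an array that was dimmer as a whole. miR-3584-5p differed by 0.09 ± 0.01, and its sign changed between scalings (range −0.59 to 0.10). miR-3473 stood at −0.58 ± 0.01, and ranged from −1.27 without scaling to 0 with quantile normalization, since it had rank 4 on both arrays. Of the 3 miRNAs 1 was called, against 41.3% of the 109 miRNAs (24 higher and 21 lower). Without scaling the split was 17 higher and 42 lower, around a median of −0.79. The median of all 109 as scaled was −0.11, and relative to it the 3 stood at 1.85, 0.21 and −0.47.

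On the light array no member was called, against 2.56% of 117 miRNAs measured on it and on the naive array. miR-1224 stood at 0.28 ± 0.01, miR-3584-5p at −0.38 ± 0.01 and miR-3473 at 0.67 ± 0.01. The median of all 117 was 0.27, so that relative to it miR-1224 was at 0.01, miR-3584-5p at −0.65 and miR-3473 at 0.40. The signs of miR-1224 and miR-3473 depended on the scaling. miR-3584-5p lay in place 14 from the bottom, and was 2.43-fold lower without scaling and past 2-fold with spike-in scaling (−1.29).

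On the moderate array no member was called, against 7.14% of 126 miRNAs, 8 higher and 1 lower (36 and 0 without scaling). miR-1224 stood at −0.48 ± 0.02, miR-3584-5p at −0.39 ± 0.01 and miR-3473 at 0.43 ± 0.01, against a median of 0.22. miR-1224 and miR-3584-5p lay near the low end, in places 18 and 19 from the bottom, but without scaling they stood at 0.04 and 0.13. miR-3473 was above naive under all 6 scalings, from 0.28 to 1.11, and past 2-fold only with spike-in scaling.

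Severe and moderate disease were both taken at day 49, and the naive array enters this comparison through the choice of the members and as 1 of the 4 arrays that set the 111 miRNAs used for scaling. miR-1224 was 4.67-fold higher on the severe array (log2 2.22 ± 0.02), in place 13 from the top of 115 miRNAs. miR-3473 was 2.01-fold lower (log2 −1.01 ± 0.01), and miR-3584-5p stood at 0.48 ± 0.01. That is 2 of the 3 called, against 42.6% of the 115, of which 26 were higher and 23 lower (13 and 78 without scaling, 20 and 62 with spike-in scaling). The call for miR-1224 held under all 11 alternatives run, with values from 1.02 to 2.96. The call for miR-3473 was lost under 5 of the 11, where it stood between −0.52 and −0.997, and was below 0 under all 11. The difference for miR-3584-5p turned to −0.72 without scaling and to −0.20 with spike-in scaling.

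**Figure D3:**
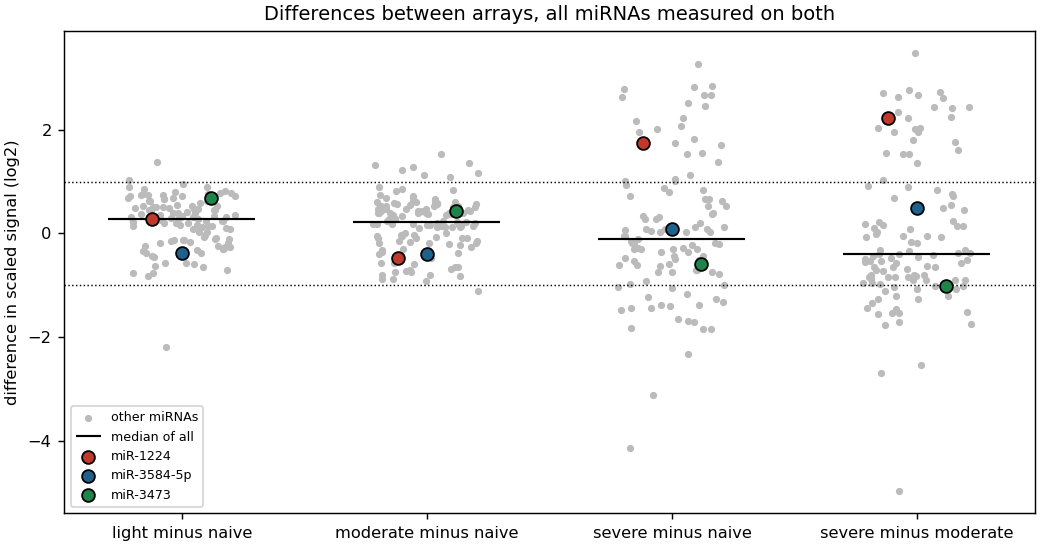
Difference in scaled signal (log2) between pairs of arrays for each miRNA measured on both (grey points, spread sideways for legibility), with the median of all as a black bar and the 3 miRNAs in colour; dotted lines mark 2-fold. miR-1224 stands at 1.74 and 2.22 in the comparisons of the severe array and close to or below the median on the light and moderate arrays.

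The 3 miRNAs did not move together. The scaling factor of an array cancels when the differences of a pair of miRNAs are subtracted, so this comparison does not depend on it; quantile normalization, which replaces each value by its rank's mean, is the exception. From naive to severe, miR-1224 gained 1.65 ± 0.02 on miR-3584-5p and 2.33 ± 0.02 on miR-3473, on the log2 scale. From moderate to severe it gained 1.74 ± 0.02 and 3.23 ± 0.02, the latter a 9.41-fold shift in the ratio of the pair. Over all settings run, quantile normalization included, these gains ranged, in order, from 1.25 to 2.79, 1.25 to 3.47, 1.71 to 2.53 and 2.77 to 4.05. Between moderate and severe miR-3584-5p gained 1.49 ± 0.02 on miR-3473 (0.52, under 2-fold, with quantile normalization). miR-3584-5p lost 1.05 ± 0.02 against miR-3473 from naive to light (−0.52, under 2-fold, with quantile normalization) and 0.81 ± 0.02 from naive to moderate, and gained 0.68 ± 0.02 from naive to severe (0 with quantile normalization). From naive to moderate miR-1224 and miR-3584-5p differed by 0.09 ± 0.02 (miR-1224 lower), and the sign turned to 0.26 when the dimmer probes alone were used. From naive to light miR-1224 gained 0.66 ± 0.02 on miR-3584-5p, but stood at −0.52 against it with quantile normalization. Each shift past 2-fold was many times its spot error; the spread between animals is not known.

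The 2 probes of each miRNA were set against each other. Those of miR-3584-5p were alike in brightness, the dimmer at 94.6% to 101% of the other, and those of miR-3473 kept a near constant ratio of 10.77% to 10.95% on the 4 arrays. The probes of miR-1224 did not keep theirs. The dimmer one read 285 ± 2.30 in naive, 164 ± 1.21 in light, 370 ± 1.27 in moderate and 1310 ± 8.75 in severe disease, which was 3.09%, 2.73%, 3.95% and 7.07% of the brighter one. Between severe and naive the brighter probe gave a log2 difference of 1.69 ± 0.01 and the dimmer one 2.88 ± 0.02. Both were past 2-fold upward, but their gap of 1.19 was the largest among 71 miRNAs with at least 2 probes above background on both arrays, whose median gap was 0.10. In the same comparison the gap, dimmer minus brighter, was −0.014 for miR-3584-5p and −0.0013 for miR-3473. Against the moderate array the gap of miR-1224 was 0.84, in place 3 of 76. The higher value of miR-1224 on the severe array therefore has a direction common to both probes and a size that differs between them by 2.29-fold, and why they differ was not tested.

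**Figure D4:**
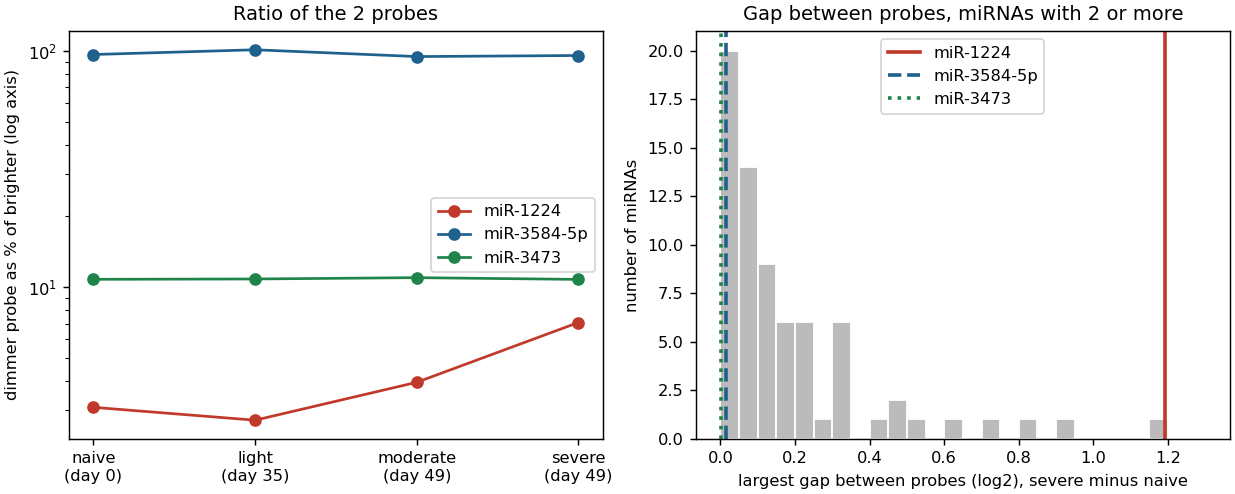
Left, signal of the dimmer probe as a percentage of the brighter one (log axis) on each array for the 3 miRNAs, with lines only to guide the eye. Right, histogram of the largest gap between the probes of a miRNA in the severe minus naive difference (log2) for 71 miRNAs, with the 3 miRNAs as vertical lines. The ratio of miR-1224 goes from 3.09% to 7.07% and its gap of 1.19 is the largest, while the gaps of the other 2, drawn without sign, are 0.014 and 0.0013.

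The other arm of the miR-3584 hairpin, miR-3584-3p, was looked up after the values were seen. Its 2 probes lay between −7.10 and −3.04 as means on the 4 arrays, and 0 of 20 spots on each array were well above background. Of the 2 arms, only the 5p arm's probes thus gave a signal at the sensitivity of these arrays. Whether that signal came from this hairpin was not tested. The table of sequences gives 1 mature arm each for miR-1224 and miR-3473.

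A list of 14 names, drawn up as mirtrons and other intronic miRNAs, was read next. Whether each of them lies in an intron was not checked. On the naive array 3 of the 14 were measured: miR-877, a known mirtron, and both arms of miR-328a. On the severe array 4 were measured, and of the 3 with a difference from naive 2 were called higher and 1 lower, where 41.3% of all 109 were called (24 higher and 21 lower). miR-877, whose hairpin also begins with GU and ends with AG, read 155 in naive, 59.9 in light, 252 in moderate and 316 in severe disease. Its differences from naive were −0.46, 0.19 and 1.71 on the light, moderate and severe arrays. Those of miR-1224 were 0.28, −0.48 and 1.74, of opposite sign on the light and moderate arrays as scaled. The opposite signs depended on the scaling. Without scaling both miRNAs were below naive on the light array and above it on the moderate one, with miR-1224 at −0.62 and 0.04. miR-328a-5p stood at 1.53 on the severe array and miR-328a-3p, from the other arm, at −1.85. miR-1249 was measured on the moderate and severe arrays only, at 19.5 and 45.8. miR-678 and miR-3595, with the same hairpin ends, were not measured on any array. The list's median from naive was −0.10 on the light, −0.09 on the moderate and 1.53 on the severe array, over the same 3 miRNAs each time.

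G content, which is high in all 3 members, was set beside the differences on the severe array. Across 97 miRNAs with a sequence, measured on the severe and naive arrays, the G content and the log2 difference had a Pearson r of 0.17 and a Spearman rho of 0.05, and 0.15 and 0.03 without the 3. These are correlations across miRNAs of the same 2 arrays and are given as descriptions. Of the 15 miRNAs with at least the G content of miR-3473, 8 were called higher and 3 lower (7 and 3 of 12 without the members), against 13 and 15 of the 82 with less G. The median difference was 1.01 in the first set, 1.06 without the members and −0.22 in the second. From moderate to severe the medians were 1.28 over 16 miRNAs, 1.53 over 13 without the members and −0.52 over the 86 with less G. The miRNAs richest in G thus had the higher median in both comparisons, which share the severe array, while the correlation over all was weak. On the light and moderate arrays, against naive, they had the lower median. It was −0.15 against 0.34 on the light and −0.23 against 0.27 on the moderate array. The Spearman rho of G content was −0.13 and −0.27 there. The division by G content was set after the values were seen. The U content had an r of −0.36 over the 97 miRNAs measured on the severe and naive arrays.

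Each miRNA was then set beside those whose differences from naive on the light, moderate and severe arrays were nearest to its own, by the root mean square distance on the log2 scale over the other 103 miRNAs measured on all arrays. miR-3473 had close neighbours. They were miR-146a-5p, a miRNA induced by NF-κB in immune cells, at 0.10, miR-19b-3p, of the miR-17-92 cluster, at 0.11, and miR-140-3p, of cartilage, at 0.11; 8 miRNAs lay within 0.2. miR-146a-5p stood at 0.63, 0.51 and −0.44 on the light, moderate and severe arrays, against 0.67, 0.43 and −0.58 for miR-3473. miR-1224 had 0 miRNAs within 0.2, and its nearest were miR-3593-3p at 0.23, miR-328a-5p at 0.34 and miR-125a-3p at 0.37. miR-3593-3p stood at 0.10, −0.60 and 2.08, a high value on the severe array alone, as with miR-1224. miR-3584-5p also had 0 within 0.2, with miR-324-3p at 0.25, miR-92a-3p at 0.32 and miR-466c-3p at 0.33. The median distance was 1.24 for miR-1224, 0.86 for miR-3584-5p and 0.69 for miR-3473. From miR-1224, miR-3584-5p was in place 33 and miR-3473 in place 74 of the 103. All these profiles share the naive array, and 3 differences are few.

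**Figure D5:**
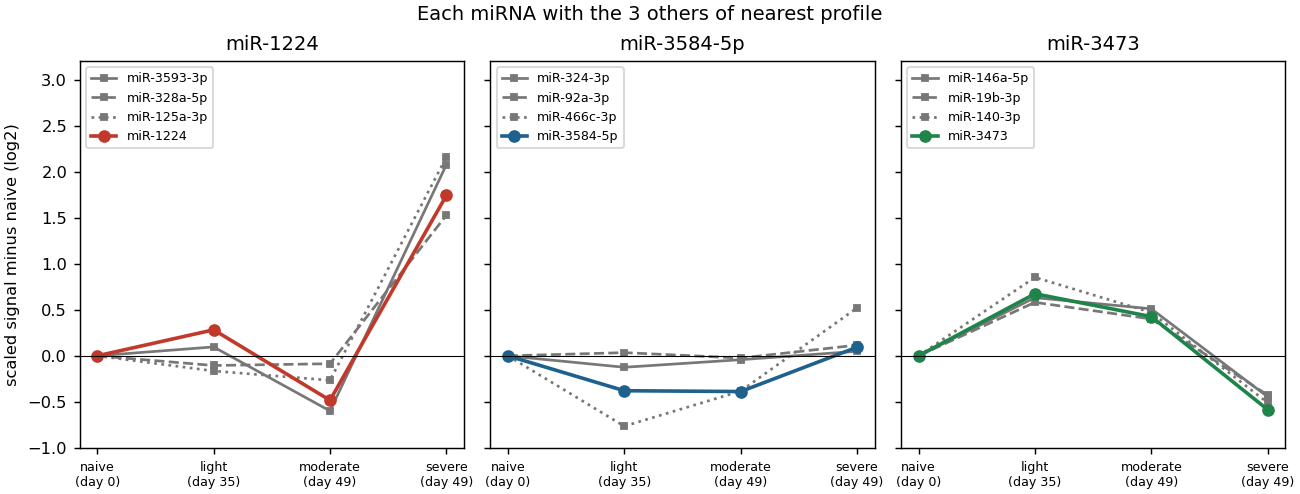
Scaled signal minus naive (log2) on the 4 arrays for each of the 3 miRNAs (colour) and the 3 miRNAs of nearest profile (grey), with lines only to guide the eye, since moderate and severe are of the same day. miR-1224 and its neighbours are high on the severe array alone, while miR-3473 and its neighbours lie above naive on the light and moderate arrays and below it on the severe array.

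Markers of blood and tissue cells also differed between the arrays, and their part in the results was not tested. The red-cell list (miR-451-5p, miR-16-5p and both arms of miR-144) held 25.2%, 27.0%, 25.1% and 17.8% of the summed signal, in the order naive, light, moderate, severe, with 3 or 4 of its 4 members measured. Its sum was mostly miR-451-5p and miR-16-5p, at −0.30 and −0.71 from naive on the severe array, whereas miR-144-3p was called higher on the light (1.38) and severe (1.82) arrays. Unscaled, miR-144-3p read 169 on the naive, 234 on the light and 371 on the severe array. Its call on the light array was thus lost without scaling. The platelet list held 6.48%, 7.56%, 8.72% and 3.84%, also with 3 or 4 of 4 measured. The leukocyte list, with 5 of 5 measured, held 1.33%, 1.51%, 1.04% and 0.674%. Its members were not alike. From naive to severe miR-150-5p (−3.11) and miR-342-3p (−1.33) were called lower. There miR-142-5p stood at −0.64, miR-146a-5p at −0.44 and miR-142-3p at 0.03. On the moderate array miR-142-3p (−0.88) and miR-150-5p (−0.57) were below naive. Above it were miR-146a-5p (0.51), miR-142-5p (0.16) and miR-342-3p (0.12). The platelet sum was mostly miR-223-3p, which is not particular to platelets. That miRNA stood at 0.48, 0.63 and −0.91 from naive on the light, moderate and severe arrays, beside 0.67, 0.43 and −0.58 for miR-3473. The other platelet markers differed from this: miR-126a-3p stood at −0.64, −0.08 and −0.98, and miR-22-3p at 0.53, 0.40 and 0.02. The hepatocyte list, of which 2 of 3 were measured and miR-194-5p on no array, held 1.04%, 0.317%, 0.648% and 1.04%. The equal share on the naive and severe arrays joins a lower miR-122-5p (−0.75) and a higher miR-192-5p (1.56, called). Unscaled, miR-192-5p read 321 on the naive and 588 on the severe array, which is under 2-fold. The muscle list held 0.899% on the naive array, with 2 of 4 measured, and 0.0407% on the severe array, with 1 of 4 (miR-1-3p not among them), and 0.470% and 1.56% on the light and moderate arrays. In a serum sample fewer vesicles of a source and less of the RNA per vesicle cannot be told apart. The severe array also had 525 spots marked as outliers, against 386 to 387 on the others, and 1 of them was a spot of the dimmer probe of miR-3473.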

How the data were processed

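The deposited intensity per spot (processed signal) was made, per the file headers, with Agilent Feature Extraction 10.7.3.1 (the submitters' processing notes name 9.1). It includes values below 0. The headers list a background-subtracted signal and statistics of a spatial detrend, and no scaling between arrays is recorded in them. The authors also deposited an intensity summed for each miRNA, with 0.1 written for those not detected, a detection call of 0 or 1 and spot flags. The series' deposited value table holds the same total intensity, on a linear scale and uncentred, for 102 miRNAs (medians 189, 107, 304 and 114), the 3 members among them, within 0.0424%. Control and outlier spots were left out, spots were averaged per probe, probes summed per miRNA, and sums divided by the 75th percentile over miRNAs detected on all arrays (Python 3.11.15, pandas 2.3.3). The number of arrays, 1 per group, limits the precision. Alternatives were 4 other scalings, the percentile without the members, normexp with an offset of 50 (limma 3.58.1), run on the median spot signal because the files hold no mean, the brightest probe, spot medians, outliers kept, and the scanner's totals. The dimmest probe was added after the values were seen. The named miRNAs are the members, those of the same seed, a list of 14, the markers, naive-rank neighbours and 3 nearest profiles each. Members and lists were chosen with earlier results of these data known.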

Additional observations from a re-analysis of the deposited data

Results flagged for a closer look

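miR-1224 moved in opposite directions from naive on the 2 arrays of day 49, with a log2 difference of −0.48 in moderate and 1.74 in severe disease. Each group has 1 array, and the difference was not tested. The moderate value was 0.04 without scaling and 0.20 with spike-in scaling, so the opposite sign depends on the scaling, whereas the severe value was above 1 under all 11 alternatives run.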

How the results depend on the processing

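The call for miR-1224 on the severe array, against naive and against moderate, kept its direction and its side of 2-fold under all 11 alternatives. miR-3473 on the severe array was below naive under 10 of the 11 and at 0 with quantile normalization, which put miR-3584-5p at 0 in all 4 comparisons. miR-1224 on the light array turned to −0.054 with median scaling, −0.62 without scaling, −0.52 with quantile normalization, −0.63 with spike-ins, −0.079 with the brightest and −0.18 with the dimmest probe. With the brightest and the dimmest probe the percentile was also recomputed from those probes alone. With the main percentiles the brighter and dimmer probes of miR-1224 stood at 0.29 and 0.11 on that array. miR-3473 turned there to −0.23 without scaling and −0.24 with spike-ins, and miR-3584-5p passed 2-fold at −1.28 and −1.29. On the moderate array miR-1224 turned to 0.036 without scaling and 0.20 with spike-ins, miR-3584-5p turned to 0.13 and 0.30, and miR-3473 reached 1.11 with spike-ins. On the severe array miR-3584-5p turned to −0.59 without scaling, −0.033 with the percentile without the 3, −0.12 with normexp and −0.22 with the dimmest probe, and miR-3473 reached −1.27 without scaling. From moderate to severe miR-3584-5p turned to −0.72 without scaling and −0.20 with spike-ins. There miR-3473 was −0.87 with median scaling, −0.52 with quantile normalization, −0.97 with the brightest probe, −0.997 with outliers kept and −0.99 with the scanner's totals. miR-1224 minus miR-3584-5p turned to −0.52 with quantile normalization (light) and 0.26 with the dimmest probe (moderate). Each scaling other than quantile normalization moves all miRNAs of an array by 1 factor. The cause of the other changes was not tested. The count of miRNAs past 2-fold from naive was 3 on the light array, but 6 with median scaling, 32 without scaling, 33 with spike-ins and 1 with normexp. On the moderate array it was 9, but 36 without scaling, 57 with spike-ins, 14 with no floor and 0 with normexp, whose offset lowers folds by construction. On the severe array it was 45, and 19 with normexp. From moderate to severe it was 49, but 91 without scaling, 82 with spike-ins and 32 with normexp. Of those called from moderate to severe 53.1% were higher, against 14.3% without scaling, 24.4% with spike-ins and 78.1% with normexp. From naive to severe it was 53.3%, against 28.8% without scaling and 73.7% with normexp, and from naive to moderate 88.9%, against 41.7% with quantile normalization and 60.0% with median scaling. The 75th percentile over all miRNAs was below 0 on the light array (−0.74), so that scaling was not run. No paired analysis was possible because each group has 1 array, and no array could be left out.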
